A study of Homo sapiens with 8 samples.

Results

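The 9 genes below, which breast cancer studies commonly read as targets of the estrogen receptor, were followed here: TFF1, TFF3, CTSD, FKBP4, SERPINA3, NRIP1, EFNA1, NHERF1 and FHL2. Each was taken as a probe set whose annotation carries exactly 1 gene symbol, that of the gene. This gave 9 probe sets for the 9 genes, of 7713 genes named in this way on the arrays. All 9 probe sets passed the filter on low signals and were tested.

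Messenger RNA was measured on 8 Affymetrix arrays from 2 human breast cancer lines, with 2 arrays in each of 4 groups. ZR75-1 is labelled ER-positive and SKBR3 ER-negative. Each line was given either a plasmid carrying HSD17B14 or the same vector lacking that insert, by FuGene-6 transfection at 24 h after seeding, and was harvested 48 h later. All 4 groups shared phenol-red-free medium with 4% serum, and no arm with added estradiol or with an antiestrogen was analysed here. The cultures were transfected as a whole, the share of cells that took up plasmid is not given in the sources used here, and in such bulk RNA a change in fewer cells and a smaller change in every cell cannot be told apart. The labels speak of duplicates without calling them separate cultures, so a p-value here reflects array-to-array spread within groups, which may be technical.

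Estradiol binds the estrogen receptor, encoded by ESR1, which then occupies DNA at estrogen response elements, directly or through partner factors, and recruits coregulators that raise or lower transcription. HSD17B14 is a short-chain dehydrogenase that can oxidise estradiol to the weaker estrogen estrone. The comparison in ZR75-1 therefore asks whether transcripts that follow the receptor were lower in cells given the enzyme.

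HSD17B14 signals in ZR75-1 were 107.5 and 135.3 with its plasmid and 17.8 and 2.1 with the vector (adjusted p = 0.0296, and 0.0715 to 0.116 after omitting any single array, of either line, that received HSD17B14). Over 19 alternatives this call was lost in 7, with log2 changes from 1.89 to 5.84 and adjusted p up to 0.440. In the other line the signals were 650.7 and 743.6 against 2.0 and 4.2 (adjusted p = 1.42e-04, and 0.0602 in 1 of 19 alternatives, with no trend in the variance prior). The arrays labelled SKBR3 went against the known profile of that line, which carries an amplified ERBB2 gene. Their ERBB2 signals ran from 25.9 to 46.8, against 95.9 to 226 in ZR75-1. VIM, the mesenchymal filament vimentin, read 3646.2 to 5325.8 there. These arrays are therefore called SKBR3-labelled, and every contrast between the lines below rests on them. In ZR75-1 all 14 luminal markers lay above a common floor of 17.6 on both arrays of both groups, and 1 of 11 mesenchymal or basal markers did. In the SKBR3-labelled groups 11 (HSD17B14) and 9 (vector) luminal markers and 8 mesenchymal or basal ones did. Of 5 genes of the amplified ERBB2 region, 2 did in each SKBR3-labelled group, and 2 (HSD17B14) and 3 (vector) did in ZR75-1. Of the 4 tested, 2 were lower in SKBR3-labelled vector arrays than in ZR75-1 ones and 2 higher. STARD3 was among the higher, at 34.8 and 27.5 against 26.6 and 30.3, with overlap. The floor is the highest of the arrays' own 40th percentiles. The actin 3'/5' signal ratio, a measure of RNA integrity, was 2.83 and 2.66 for ZR75-1 given HSD17B14 and 2.03 and 2.02 for ZR75-1 given the vector. For the SKBR3-labelled cells it was 2.28 and 3.09 with HSD17B14 and 3.60 and 2.996 with the vector, so it was higher with the plasmid in ZR75-1. The GAPDH ratio went the other way there, at 0.896 and 0.883 with HSD17B14 and 1.084 and 1.039 with the vector.

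The receptor's own transcript came first. ESR1 signals in ZR75-1 were 194.5 and 224.4 with HSD17B14 and 341.6 and 225.0 with the vector. The upper HSD17B14 array and the lower vector array were almost equal, and the log2 change of -0.41 ± 0.34 did not pass (SE from limma, n = 2 arrays per group, adjusted p = 0.565). In the other line ESR1 lay around the floor, at 24.6 and 16.0 against 24.4 and 14.9.

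The log2 changes that follow are signals with HSD17B14 minus signals with the vector, each ± limma's SE with n = 2 arrays per group. A change was called where its adjusted p (Benjamini-Hochberg over all 6251 tested probe sets) was under 0.05.

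TFF1 (probe set 205009_at) and TFF3 (204623_at) encode small secreted trefoil peptides that protect mucosal surfaces, and TFF1, also called pS2, is the textbook estrogen-induced transcript of breast cancer cells. TFF1 signals in ZR75-1 were 2767.7 and 2472 with HSD17B14 and 1874.1 and 2114.5 with the vector. Both HSD17B14 arrays were above both vector arrays, the opposite of a lowering. The log2 change was 0.39 ± 0.14 (1.31-fold higher, 95% interval 0.09 to 0.70 before adjustment, adjusted p = 0.159) and did not pass. TFF3 gave 641.3 and 698.8 against 533.6 and 658.2. Here the groups overlapped, with a log2 change of 0.18 ± 0.23 (interval -0.34 to 0.69, adjusted p = 0.758).

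CTSD (200766_at) encodes the lysosomal aspartic protease cathepsin D, which breast cancer cells can secrete. Its signals in ZR75-1 were 410.9 and 366.8 with HSD17B14 and 845.9 and 697.7 with the vector. Every HSD17B14 array was below every vector array. The log2 change of -0.98 ± 0.30 (1.98-fold lower, interval -1.64 to -0.33) had an adjusted p of 0.110 and was not called. This call depended on the spread that the 4 groups share, to which the SKBR3-labelled vector arrays add signals of 70.1 and 31. The ZR75-1 change passed with SKBR3-labelled vector array 1 or 2 left out (adjusted p = 0.0264 and 0.0229), with ZR75-1 fitted alone (adjusted p = 0.00283) and with log2 of the signal plus 32 (log2 change -0.93, adjusted p = 0.0136). With the actin ratio as a covariate it was -1.40 with an adjusted p of 0.496. Over all 19 alternatives the log2 change stayed below 0, from -1.40 to -0.73, with adjusted p from 0.00283 to 0.496.

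FKBP4 (200895_s_at) encodes FKBP52, an immunophilin of the HSP90 complexes that hold steroid receptors ready for hormone. NHERF1 (201349_at) encodes a PDZ-domain scaffold that ties membrane transporters and receptors to the actin-linked ezrin proteins. FKBP4 signals in ZR75-1 were 620.4 and 752.7 with HSD17B14 and 925.9 and 1042.8 with the vector. For NHERF1 they were 795.4 and 867.5 against 1128.8 and 1210.3. In both genes the HSD17B14 arrays lay below the vector arrays without overlap. The log2 changes were -0.52 ± 0.16 for FKBP4 (1.44-fold lower, adjusted p = 0.110) and -0.49 ± 0.15 for NHERF1 (1.41-fold lower, adjusted p = 0.111), and neither passed.

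SERPINA3 (202376_at) encodes alpha-1-antichymotrypsin, a secreted serine protease inhibitor that is also an acute-phase protein, and EFNA1 (202023_at) encodes ephrin-A1, a membrane-anchored ligand of Eph receptors. SERPINA3 signals in ZR75-1 were 144.6 and 161.8 with HSD17B14 and 82.2 and 92.3 with the vector. The higher group was again the one given the enzyme, with no overlap. The log2 change was 0.81 ± 0.23 (1.76-fold higher, interval 0.31 to 1.31, adjusted p = 0.0894). It passed with ZR75-1 fitted alone (adjusted p = 0.0406) and with log2 of the signal plus 32 (adjusted p = 0.0388), and adjusted p ran from 0.0388 to 0.640 over the 19 alternatives. EFNA1 signals were 309.1 and 323.6 against 196.2 and 257.1, also higher without overlap, at 0.49 ± 0.20 (1.41-fold, adjusted p = 0.215).

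NRIP1 (202600_s_at) encodes RIP140, a corepressor that binds hormone-occupied nuclear receptors and is itself induced by estrogen, and FHL2 (202949_s_at) encodes a LIM-domain coregulator. NRIP1 was close to the floor in ZR75-1, at 43.6 and 33.4 with HSD17B14 and 33.2 and 31.1 with the vector. FHL2 read 73.4 and 62.0 against 58.7 and 59.3. Both had the HSD17B14 arrays higher by narrow gaps, and the log2 changes of 0.25 ± 0.35 (adjusted p = 0.771) and 0.19 ± 0.18 (adjusted p = 0.626) did not pass.

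In ZR75-1, then, 0 of the 9 genes were called in either direction, where 1.52% of all tested probe sets were (0.736% higher and 0.784% lower). At an unadjusted p under 0.05, 3 were higher (TFF1, SERPINA3 and EFNA1) and 3 lower (CTSD, FKBP4 and NHERF1), against 8.35% and 9.61% of all tested probe sets. The arrays did not overlap for 5 higher and 3 lower genes, against 20.7% and 26.3%. The members' median log2 change was 0.19, against -0.04 over all tested probe sets. The set thus did not shift one way: 6 genes had values above 0, as did 46.8% of all tested probe sets, and 3 had values below, a split that stayed at 6 and 3 under quantile normalization, median centring, log2 of the signal plus 32 and values raised to the common floor. Median centring moved the median of all tested probe sets from -0.04 to 0.16, and the share of higher among all calls from 48.4% to 78.3% (34.4% with log2 of the signal plus 32). Under it CTSD, FKBP4 and NHERF1 read -0.78, -0.32 and -0.29. A missing call in ZR75-1 does not show that a gene was unchanged. Of simulated 2-fold changes in probe sets drawn from all those tested, 36.8% were recovered. That share is an average over probe sets with a median SD of 0.36. The SEs of the 9 genes ran from 0.14 to 0.35, so it is not the rate for these genes.

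**Figure D1:**
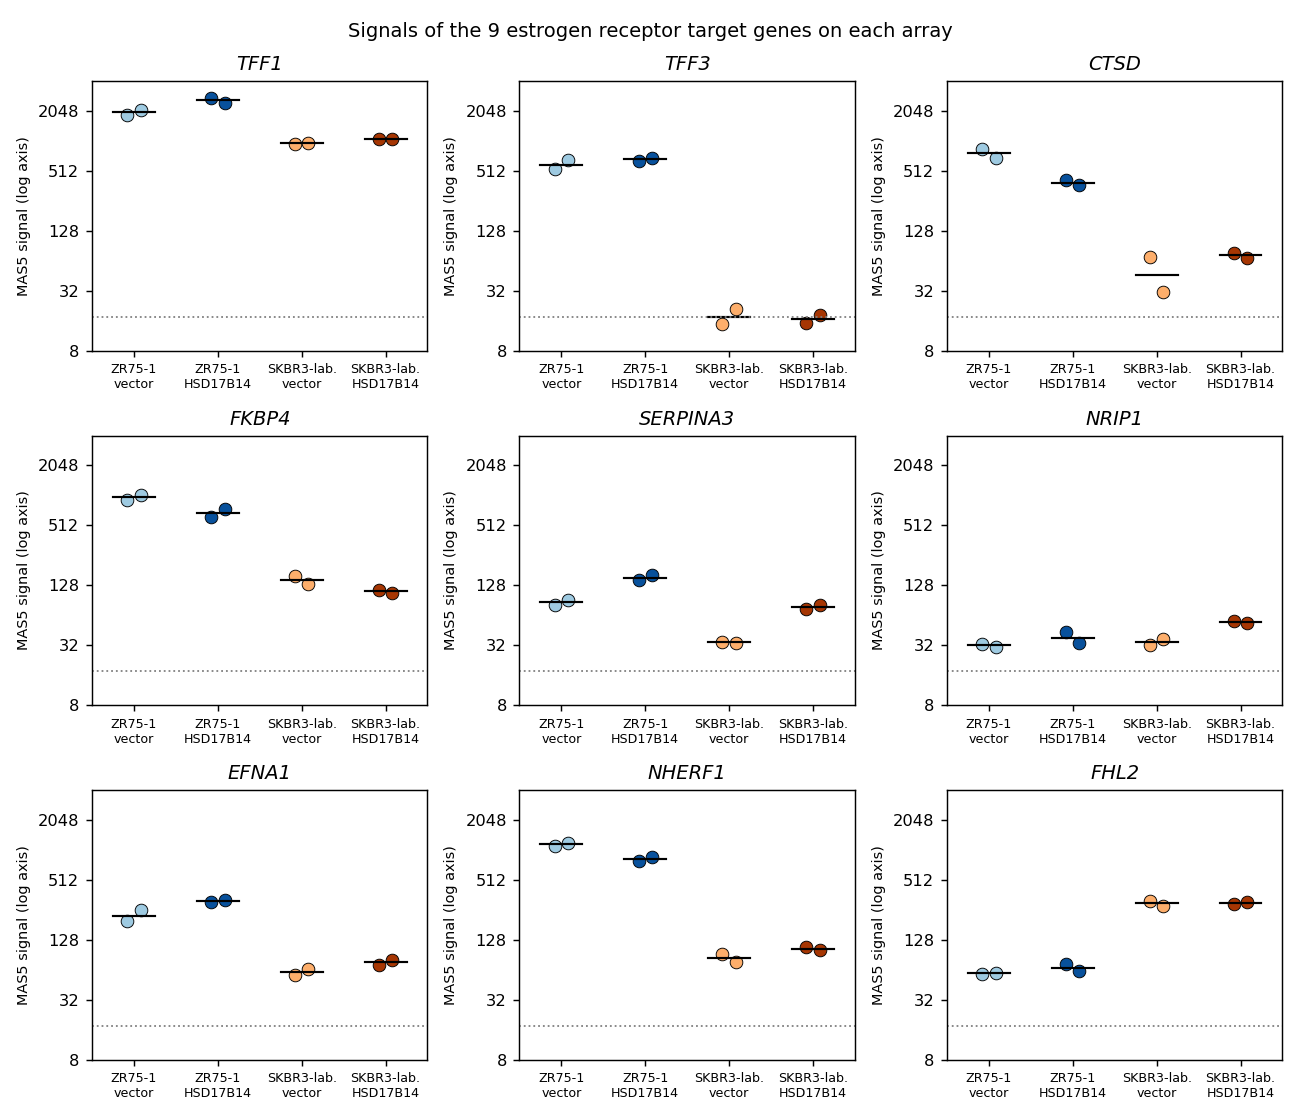
Signals of the 9 genes on each of the 8 arrays, 1 panel per gene, on a log axis shared by all panels; points are single arrays in the 4 groups of line and plasmid, and the dotted line is the common floor of 17.6. In ZR75-1 the CTSD, FKBP4 and NHERF1 points are lower with HSD17B14 and the TFF1, SERPINA3 and EFNA1 points higher, each without overlap.

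CTSD and SERPINA3, the members with the lowest and the highest log2 change in ZR75-1, are shown with the 250 bases before their transcription start, since the core letters of the receptor's element were searched there. Sequences are RefSeq's on GRCh38.p14, 5' to 3' on the gene's strand, and capitals mark GGTCA or its reverse complement TGACC. The CTSD stretch is chr11:1763928-1764177 on the minus strand, and the SERPINA3 stretch is chr14:94612141-94612390 on the plus strand.
CTSD: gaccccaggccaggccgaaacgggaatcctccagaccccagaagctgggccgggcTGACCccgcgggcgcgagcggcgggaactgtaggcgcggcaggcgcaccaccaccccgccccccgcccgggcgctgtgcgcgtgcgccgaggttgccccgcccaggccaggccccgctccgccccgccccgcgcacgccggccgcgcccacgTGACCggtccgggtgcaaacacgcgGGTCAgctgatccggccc
SERPINA3: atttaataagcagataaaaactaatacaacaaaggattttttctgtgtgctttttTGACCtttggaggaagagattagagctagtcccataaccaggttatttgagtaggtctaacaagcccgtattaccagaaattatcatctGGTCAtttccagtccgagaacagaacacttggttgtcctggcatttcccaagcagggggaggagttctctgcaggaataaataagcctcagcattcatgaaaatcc

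CTSD holds TGACC at -195 to -191 and -43 to -39 and GGTCA at -18 to -14, counted from the base before the start as -1. SERPINA3 holds TGACC at -195 to -191 and GGTCA at -106 to -102. Both genes, with opposite directions in ZR75-1, therefore carry these letters. Promoter windows, from 250 bases before to 50 after the start, were matched for 6 members, CTSD, EFNA1, FHL2, NHERF1, NRIP1 and SERPINA3, with 11 windows among them. GGTCA on either strand occurred in 4 of the 11 windows (36.4%), 1 each of CTSD, SERPINA3, FHL2 and NRIP1, and in 37.4% of all 35116 windows of the same length. The windows of EFNA1 and NHERF1 hold none. The full palindrome, GGTCA and TGACC with any 3 bases between them, was in 0 of the 11 and in 20 of all windows (0.057%). A match is a description of letters and not a measured binding site.

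In the SKBR3-labelled cells, where ESR1 lay around the floor, the same contrast gave 1 call among the 9. SERPINA3 signals were 73.9 and 82.0 with HSD17B14 and 34.8 and 34.0 with the vector. The groups were well apart, and SERPINA3 rose 2.26-fold (log2 1.18 ± 0.23, interval 0.68 to 1.68, adjusted p = 0.0293). Among all tested probe sets 0.992% were called, 0.944% higher and 0.048% lower. The direction was the same in all 19 alternatives, with log2 changes from 0.73 (log2 of the signal plus 32) to 1.25, but the call did not pass in 9 of them. It was lost without ZR75-1 HSD17B14 array 1 or 2 (adjusted p = 0.0719 and 0.0733), without SKBR3-labelled HSD17B14 array 1 or 2 (adjusted p = 0.231 and 0.426) and without SKBR3-labelled vector array 1 (adjusted p = 0.0746). Quantile normalization, median centring, a prior not dependent on the mean and the actin covariate ended it too, with adjusted p from 0.0556 to 0.340.

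The trefoil genes had changes smaller than their errors in these cells. TFF1 signals were 1073.3 and 1060.9 against 962.4 and 987.9, with no overlap but a log2 change of 0.13 ± 0.14 (adjusted p = 0.918). TFF3 read 15.2 and 18.4 against 14.7 and 20.8, on both sides of the floor in each group, and its change of -0.06 ± 0.23 turned to 0.15 and 0.01 with quantile normalization and median centring. CTSD signals were 77.2 and 68.7 against 70.1 and 31. The upper vector array lay between the HSD17B14 arrays and the lower one far below them, and the log2 change was 0.64 ± 0.30 (adjusted p = 0.574). It was 1.23 (adjusted p = 0.0160, called) without vector array 1 and 0.06 without vector array 2. FKBP4 read 115.7 and 107.9 against 158.4 and 133.6, lower without overlap as in ZR75-1 (-0.38 ± 0.16, adjusted p = 0.522). NHERF1 read 109.5 and 100.1 against 91.7 and 77.1, higher without overlap, where ZR75-1 had been lower (0.32 ± 0.15, adjusted p = 0.584).

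EFNA1 read 71.9 and 81.1 against 56.3 and 64.8, higher without overlap as in ZR75-1 (0.34 ± 0.20, adjusted p = 0.717). For NRIP1 the signals were 56.8 and 53.8 against 32 and 37.4 (0.68 ± 0.35, adjusted p = 0.623), a clearer gap than in ZR75-1 but with the largest error of the 9. FHL2 was the most even, at 291.4 and 305 against 317.1 and 281.8, with a log2 change of -0.0039 ± 0.18 (adjusted p = 0.998). Counted over the 9 genes, 5 were higher and 1 lower without overlap, against 19.5% and 20.6% of all tested probe sets. At an unadjusted p under 0.05, 1 was higher and 1 lower (SERPINA3 and FKBP4), against 4.96% and 3.82%, and the median log2 change was 0.32 against -0.01. The members were above 0 in 6 cases (49.1% of all) and below in 3, which became 8 and 1 with median centring and 7 and 2 with quantile normalization.

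**Figure D2:**
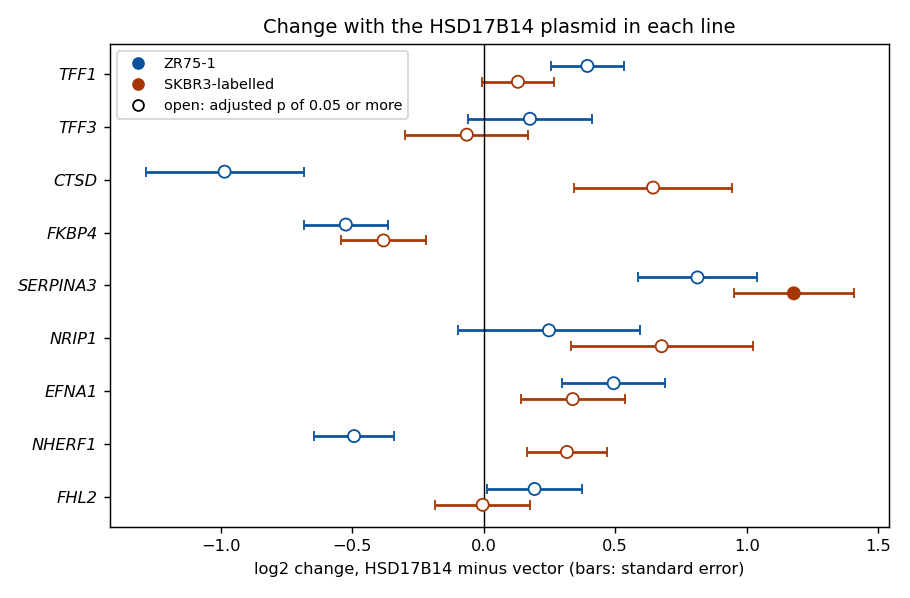
Log2 change with HSD17B14 against vector for each of the 9 genes in ZR75-1 and in the SKBR3-labelled cells; points are limma estimates, bars ± 1 SE with n = 2 arrays per group, filled points adjusted p under 0.05 and open points not. The filled point is SERPINA3 in the SKBR3-labelled cells, at 1.18; CTSD lies at -0.98 in ZR75-1 and 0.64 in the other line.

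Whether the plasmid acted differently in the ER-positive line was tested as the difference of both effects, ZR75-1 minus SKBR3-labelled. Of the 9 genes 0 were called, where 0.624% of all tested probe sets were (0.064% higher, 0.56% lower), and at an unadjusted p under 0.05 the members were 0 higher and 2 lower (5.78% and 7.26% of all). These 2 were CTSD at -1.63 ± 0.42 (interval -2.56 to -0.70, adjusted p = 0.142) and NHERF1 at -0.81 ± 0.21 (interval -1.28 to -0.34, adjusted p = 0.145). The CTSD difference rested on the SKBR3-labelled vector pair: it was -2.22 without vector array 1 (adjusted p = 0.00684, called) and -1.04 without vector array 2 (adjusted p = 0.111). It also passed with log2 of the signal plus 32 (-1.32, adjusted p = 0.0292). NHERF1 passed in 0 of 18 alternatives, with adjusted p from 0.0854 to 0.996. For the other 7 genes the adjusted p lay between 0.612 and 0.857. The intervals were -0.16 to 0.69 for TFF1 and -1.07 to 0.34 for SERPINA3.

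Averaged over both lines, SERPINA3 rose 1.99-fold (log2 1.00 ± 0.16, n = 4 arrays per arm, adjusted p = 0.00680), higher in all 4 HSD17B14 arrays than in their line's vector arrays. It was the 1 call among the 9, where 1.5% of all tested probe sets were called, 1.22% higher and 0.288% lower. The call was lost without SKBR3-labelled HSD17B14 array 2 (adjusted p = 0.0637) and with a prior not dependent on the mean (adjusted p = 0.0682), while the log2 change ran from 0.68 to 1.13 over 18 alternatives. FKBP4 was lower in both lines without overlap, at -0.45 ± 0.11 on average (adjusted p = 0.0898). It passed without SKBR3-labelled vector array 2 (-0.51, adjusted p = 0.0453). EFNA1 at 0.42 ± 0.14 (adjusted p = 0.194) and TFF1 at 0.26 ± 0.10 (adjusted p = 0.248) were higher in both lines and not called. CTSD and NHERF1 had opposite signs in the lines and averaged -0.17 ± 0.21 and -0.09 ± 0.11.

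**Figure D3:**
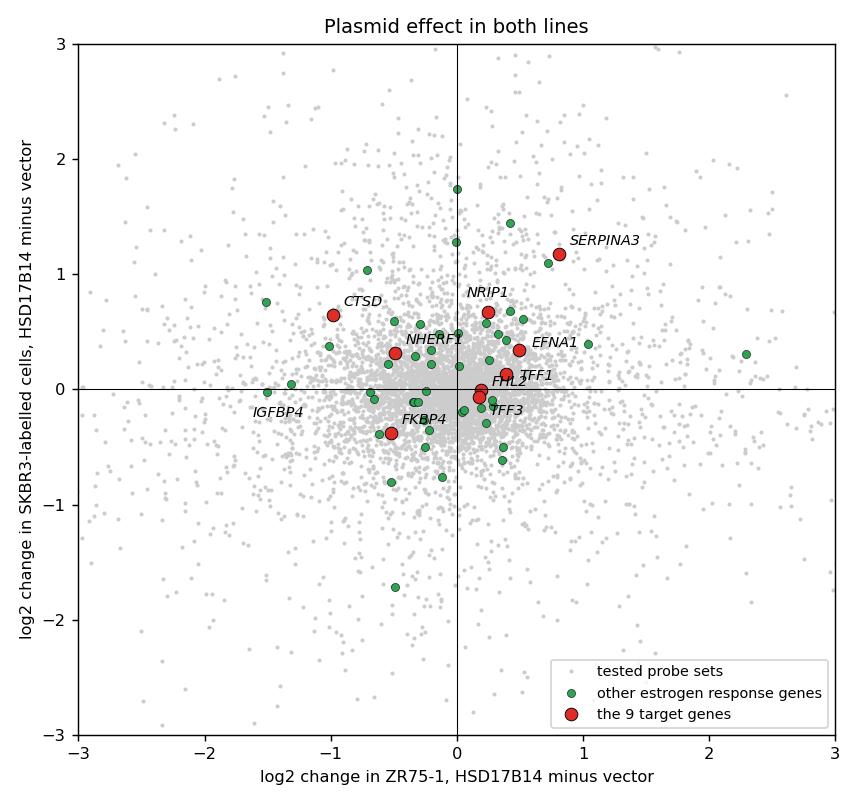
Log2 change with HSD17B14 in ZR75-1 (x axis) against that in the SKBR3-labelled cells (y axis) for all tested probe sets (grey), the 47 probe sets of other estrogen response genes (green) and the 9 target genes (red, named); 82 probe sets beyond 3 in either direction are not drawn. SERPINA3 and EFNA1 lie above 0 on both axes, FKBP4 below 0 on both, and CTSD and NHERF1 below 0 in ZR75-1 only.

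The lines differed at 8 of the 9 genes. In the vector controls, 7 of the 9 genes were called higher in ZR75-1 and 1 lower, where 19.6% of all tested probe sets were called higher and 20.7% lower (40.2% together). The median of the 9 was 1.89, against -0.04 over all. TFF3 was at least 30.97-fold higher with the SKBR3-labelled signals raised to the floor, under which 1 of their 2 arrays lay (adjusted p = 3.50e-08). CTSD was 16.5-fold higher (log2 4.04 ± 0.30), with a log2 difference of 4.63 without SKBR3-labelled vector array 1 and 3.45 without vector array 2. NHERF1 was 13.9-fold higher (3.80 ± 0.15), FKBP4 6.75-fold (2.76 ± 0.16) and EFNA1 3.72-fold (1.89 ± 0.20). SERPINA3 at 2.53-fold (1.34 ± 0.23, adjusted p = 6.24e-04) and TFF1 at 2.04-fold (1.03 ± 0.14, adjusted p = 1.09e-04) differed least among those 7. With the actin ratio as a covariate neither SERPINA3 nor TFF1 passed (adjusted p = 0.126 and 0.0881).

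FHL2 went the other way, 5.07-fold lower in ZR75-1 (log2 -2.34 ± 0.18, adjusted p = 1.60e-06). NRIP1, at 33.2 and 31.1 against 32 and 37.4, overlapped and did not differ beyond its error (-0.11 ± 0.35, adjusted p = 0.833). On the HSD17B14 arrays the calls were again 7 higher and 1 lower, against 15.1% and 18.1% of all (33.2% together). The CTSD gap there was 5.33-fold (2.41 ± 0.30), SERPINA3 1.96-fold (0.97 ± 0.23, adjusted p = 0.00605), and FHL2 was 4.42-fold lower. TFF3 was at least 37.2-fold higher, with 1 of the 2 SKBR3-labelled arrays under the floor. The SERPINA3 gap did not pass without ZR75-1 HSD17B14 array 2 or SKBR3-labelled HSD17B14 array 1 (adjusted p = 0.0523 and 0.0689). Of 11 mesenchymal or basal markers 8 were tested, and all 8 were called lower in ZR75-1 vector arrays, against 20.7% of all tested probe sets. SPARC, KRT5 and KRT14 lay under the floor on every vector array. The summed signal of the 11 was 126.1 to 137 in ZR75-1 vector arrays and 7039.6 to 7832.9 in SKBR3-labelled ones. VIM alone gave 4637.6 to 5325.8 of the latter. With 1 line of each kind, receptor status and the other differences between the lines cannot be told apart.

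**Figure D4:**
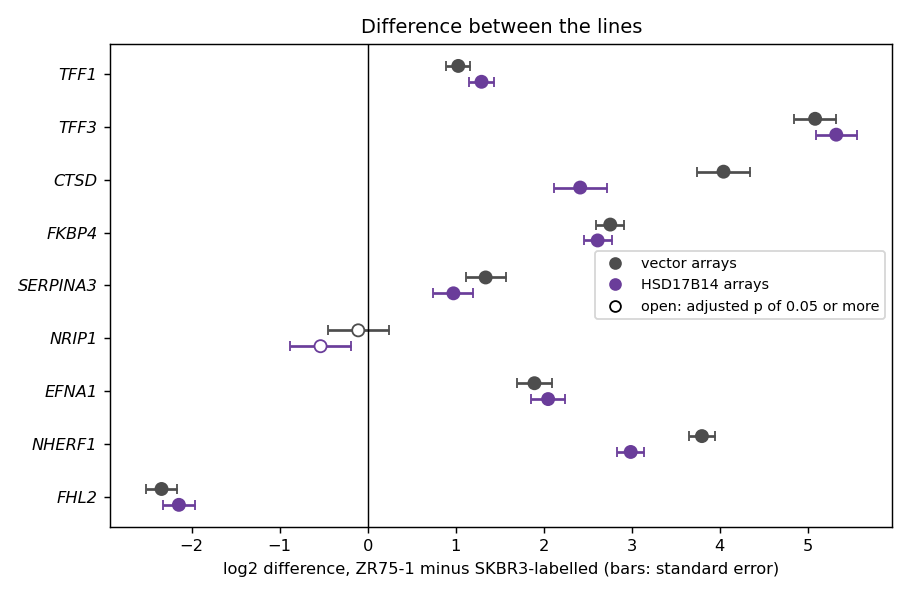
Log2 difference between ZR75-1 and the SKBR3-labelled cells for the 9 genes, in the vector arrays and in the HSD17B14 arrays; points are limma estimates, bars ± 1 SE with n = 2 arrays per group, filled points adjusted p under 0.05. All genes but NRIP1 have filled points in both; CTSD is at 4.04 with the vector and 2.41 with HSD17B14. The TFF3 points are set against signals around the floor, so their place is not exact.

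Other genes of the estrogen response were read from a list of 60, of which 53 had a probe set with 1 symbol and 46 were tested. In ZR75-1, 1 was higher, 1 lower and 44 did not pass, against 0.736% and 0.784% of all tested probe sets, with a median log2 change of -0.13. At an unadjusted p under 0.05 the counts were 3 higher and 6 lower of 46, against 8.35% and 9.61% of all. IGFBP4, which binds insulin-like growth factors, read 95.4 and 75.5 with HSD17B14 against 247.4 and 234.7, and fell by 1.51 ± 0.17 on the log2 scale (adjusted p = 0.00371, over 0.05 in 2 of 19 alternatives). PRSS23, a secreted protease, read 27.0 and 19.8 against 2.5 and 8.9, with both vector arrays under the floor. It was thus at least 1.31-fold higher. Over 19 alternatives its log2 change ran from 0.39 to 3.21, with adjusted p up to 0.448. The call by limma (adjusted p = 0.0305) belongs to the fitted log2 change of 2.29 ± 0.45 and not to that bound. That call was lost in 11 of 19 alternatives, among them omitting any single HSD17B14 array of either line, or SKBR3-labelled vector array 1 (adjusted p from 0.0518 to 0.170). Below these came genes that did not pass: the amino acid transporter SLC7A5 at -0.65 ± 0.17 (adjusted p = 0.0723), the cyclin CCND1 at -0.55 ± 0.16 (adjusted p = 0.0968), TPBG at -0.50 ± 0.15 (adjusted p = 0.114) and CELSR2 at -1.01 ± 0.35 (adjusted p = 0.159). SLC7A5 passed in 2 of 19 alternatives (lowest adjusted p = 0.0329), and CCND1 and TPBG in 0.

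The same 46 had 0 calls by limma in the SKBR3-labelled cells, where 0.992% of all tested probe sets were called, and a median of 0.21. At an unadjusted p under 0.05, 8 were higher and 2 lower, against 4.96% and 3.82% of all. The lowest adjusted p belonged to CA12, a carbonic anhydrase, at 0.57 ± 0.14 (signals 68.6 and 71.9 against 48.3 and 46.2, adjusted p = 0.106), and to TPBG at 0.59 ± 0.15 (adjusted p = 0.160). CA12 passed in 1 of 19 alternatives (adjusted p = 0.0289) and TPBG in 0. The median difference of the plasmid effect between the lines was -0.23, against -0.05 over all tested probe sets. This difference was called for IGFBP4 alone of the 46, at -1.49 ± 0.24 (adjusted p = 0.0204), where 0.624% of all tested probe sets were called. That call was lost in 9 of 18 alternatives, including ZR75-1 HSD17B14 array 2, ZR75-1 vector array 1, either SKBR3-labelled HSD17B14 array or SKBR3-labelled vector array 2 left out (adjusted p from 0.0512 to 0.168). TPBG at -1.09 ± 0.22 (adjusted p = 0.0539) and CA12 at -0.86 ± 0.19 (adjusted p = 0.0880) did not pass. Of 18 alternatives, TPBG passed in 2 and CA12 in 1 (lowest adjusted p = 0.0363 and 0.0474). In the mean over both lines IGFBP4 was again the 1 call of the 46, where 1.5% of all tested probe sets were called. It was at -0.76 ± 0.12 (adjusted p = 0.00564, over 0.05 in 2 of 18 alternatives). Its SKBR3-labelled signals were 782.4 and 680.3 against 817.8 and 668.1, with overlap.

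Between the lines, 27 of the 46 were higher in ZR75-1 vector arrays, 8 lower and 11 not called, where 19.6% and 20.7% of all tested probe sets were called. Higher were CA12, SLC7A5, AGR2, HSPB8, TPD52L1, TPBG, XBP1, SCNN1A, SLC39A6, TFAP2C, TOB1, NMU, CELSR2, INHBB, PAPSS2, CCND1, WFS1, ADCY9, PDZK1, SLC1A1, OLFM1, BCL2, ABCA3, RARA, SIAH2, DHRS3 and MYB. CA12 differed by 5.17 ± 0.14, AGR2, a disulfide isomerase, by 3.31 ± 0.19 and XBP1, a transcription factor of the unfolded protein response, by 2.11 ± 0.21 on the log2 scale. Lower were PRSS23, IGFBP4, KLF10, ELOVL5, PMAIP1, IRS1, FOS and MDK. PRSS23 was at least 45.01-fold lower, and IGFBP4 differed by -1.62 ± 0.17, so that both genes called with the plasmid in ZR75-1 were higher in the SKBR3-labelled cells. On the HSD17B14 arrays the counts were 25 higher and 6 lower, against 15.1% and 18.1% of all. CCND1, ABCA3, RARA, DHRS3, ELOVL5, FOS and MDK were not called there, while GLA and EGR3 were called higher and UGCG lower.

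The receptor's machinery, its partners and coregulators, formed a list of 21 genes, with 17 on the array and 14 tested. Of these, 0 were called with HSD17B14 in ZR75-1 by limma, against 1.52% of all tested probe sets. At an unadjusted p under 0.05, 1 was higher and 0 lower, against 8.35% and 9.61%. In the SKBR3-labelled cells 0 were called, against 0.992%. There 0 were higher and 0 lower at that unadjusted p, against 4.96% and 3.82%. The immunophilin PPID had the smallest adjusted p in ZR75-1, with signals of 91.6 and 92.6 against 61.2 and 58.5 (0.62 ± 0.20, adjusted p = 0.135). PPID encodes cyclophilin 40, which like FKBP52 is an immunophilin found in HSP90 complexes with steroid receptors. The FKBP4 signal went the other way. Between the lines, 4 of the 14 were higher in ZR75-1 vector arrays, 3 lower and 7 not called, against 19.6% and 20.7% of all tested probe sets. GATA3 was higher by 2.11 ± 0.19 and the prohibitin PHB2 by 1.59 ± 0.14 on the log2 scale. ESR1 was at least 13.4-fold and the pioneer factor FOXA1 at least 4.85-fold higher, each with 1 of 2 SKBR3-labelled vector arrays under the floor. The fitted FOXA1 difference was 3.72 without SKBR3-labelled vector array 1 and 1.81 without vector array 2. The lower genes were the Mediator subunit MED1 at -1.48 ± 0.22, PPID at -1.12 ± 0.20 and the chaperone HSP90AB1 at -0.63 ± 0.14. The same contrast on the HSD17B14 arrays called ESR1, PHB2, GATA3 and FOXA1 higher and MED1, PPID and HSP90AB1 lower.

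Over the 8 arrays, the genes whose log2 signals ran most like a member's were found by Pearson's r, given as a description since the line difference sets most of it. For TFF1 these were S100P, SSR4 and EFNA1, the last a member itself, each with r = 0.992. S100P, a calcium-binding protein, read 1115.1 and 1094.4 with HSD17B14 and 401.9 and 504.2 with the vector in ZR75-1. For CTSD they were LDOC1 (r = 0.999), JUP (0.9935) and RAD9A (0.991). JUP, which encodes plakoglobin, a protein of cell junctions, read 158 and 166.8 against 271.9 and 218.9 in ZR75-1. For SERPINA3 they were PSME1 (0.983), ISG20 (0.981) and RND1 (0.972). RND1 lay under the common floor of 17.6 on all SKBR3-labelled arrays, at 15 and 13.6 with HSD17B14 and 3.6 and 3.3 with the vector. Its r is therefore not exact. PSME1, a proteasome activator subunit, and ISG20, an exonuclease, are both known as interferon-induced genes. ISG20 read 810.8 and 751.1 against 407.4 and 461.4 in ZR75-1 and 338.3 and 340.1 against 66.6 and 87.9 in the SKBR3-labelled cells, higher with HSD17B14 in both lines.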

How the data were processed

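Messenger RNA in 8 samples was measured on HG-Focus arrays. Per the submitters' processing notes, the deposited signal intensities come from MAS5 (version not given). They are linear and carry no detection calls. Of 8793 probe sets, 47 Affymetrix controls were left out. Genes were named from the platform annotation, only where a probe set carries 1 symbol. A gene outside the members with several probe sets, such as CELSR2, is given by the one with the highest mean log2 signal, and its other readings are not shown.

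Signals under 1 were set to 1 and log2 was taken. Probe sets above an array's own 40th percentile on at least 2 arrays (6251) entered limma 3.58.1 in R 4.3.3, with 4 group means and a prior variance that follows the mean. Residual degrees of freedom were 4, those of the prior 7.39, and the median SD was 0.36. The number of arrays limits the precision. Calls used Benjamini-Hochberg adjusted p under 0.05 over all 6251. For the ZR75-1 contrast, 20 simulations gave 200 of the 6251 probe sets a 2-fold change. The fit recovered 36.8% of these changes, and 6.24% of its calls were false. A probe set without a call can therefore still have changed 2-fold. Figures used matplotlib 3.10.9 in Python 3.11.15.

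The 9 genes, the gene lists and the tests were chosen with earlier results of these data known. All 9 genes are reported, and from each list every called gene and up to 4 further ones with the largest absolute moderated t. Alternatives were other scalings (quantile, median centring), filters, log2 of the signal plus 32, values raised to the common floor, a constant prior, the replicate number, the Bacillus spike-in level or the actin ratio as a term, each line alone, and each array left out.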

Additional observations from a re-analysis of the deposited data

Results flagged for a closer look

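NHERF1 had values of opposite sign in the lines, neither of them called. With HSD17B14 both ZR75-1 arrays were lower than both vector arrays (795.4 and 867.5 against 1128.8 and 1210.3), and both SKBR3-labelled arrays were higher (109.5 and 100.1 against 91.7 and 77.1). The difference of the effects was -0.81 on the log2 scale, and limma's test of it did not pass (adjusted p = 0.145).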

How the results depend on the processing

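Of 990 recomputed values of the 9 genes, 942 kept their direction and their side of the threshold, 15 lost a call, 13 gained one and 20 changed sign, 0 of them from a called value. The count of members called in ZR75-1 (0) became 2 with log2 of the signal plus 32 and with each line fitted alone, and 1 with the replicate number as a block (CTSD, adjusted p = 0.0315). Leaving out 1 array gave 0 to 1. In the SKBR3-labelled cells (1) it became 0 with quantile normalization, median centring, a prior not dependent on the mean and the actin covariate, and 0 to 1 with 1 array left out. For the mean effect (1) it became 0 without the mean-dependent prior, 2 with the replicate block (FKBP4, adjusted p = 0.0491), and 0 to 2 with 1 array left out. For the difference (0) it became 1 with log2 of the signal plus 32 and with the replicate block (CTSD, -1.63, adjusted p = 0.0237), and 0 to 1 with 1 array left out. The block changed no other call of the 9 genes. Deviations of same-numbered arrays from their group means correlated at -0.04 in each line. With 2 arrays a group this cannot show whether same-numbered arrays were handled together. Bacillus spike-in controls, as mean log2 signal, were at 7.23, 6.61 and 6.67 on array 2 of ZR75-1 HSD17B14, SKBR3-labelled HSD17B14 and SKBR3-labelled vector. They were at 4.01 on array 2 of ZR75-1 vector, and at 4.72 to 5.31 on every array 1.

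Values that changed sign, none of them called, were small. In the SKBR3-labelled cells TFF3 became 0.15 (quantile) and 0.0098 (median centring), and FHL2 0.0702 (median centring) and 0.10 (actin covariate). In the mean effect NHERF1 became 0.0508 (median centring) and TFF3 -0.0193 (spike-in block). In the difference TFF3 became -0.0079 (quantile) and FHL2 -0.0654 (actin covariate), and NRIP1 between vector arrays became 0.0499 (replicate block). With 1 array left out, TFF3 ran from -0.31 to 0.19 and FHL2 from -0.089 to 0.0812 in the SKBR3-labelled cells. In the mean effect TFF3 ran from -0.0694 to 0.18 and CTSD from -0.46 to 0.12. In the difference TFF3 ran from -0.0103 to 0.49 and EFNA1 from -0.0395 to 0.35, and NRIP1 between vector arrays from -0.22 to 0.006. The cause of these changes was not tested. Over all probe sets the count of calls in ZR75-1 was 95, from 1 (actin covariate) to 263 (each line alone). It was 62 (9 to 125) in the SKBR3-labelled cells, 94 (12 to 211) for the mean effect, 39 (0 to 67) for the difference, and 2516 (571 to 2775) and 2074 (1361 to 2284) between lines with vector and with HSD17B14. Median centring moved the share of higher calls for the mean effect from 80.9% to 96.1%, and log2 of the signal plus 32 to 61.8%. With 2 arrays a group, an exact permutation test of 1 gene cannot go below p = 0.333. Signals at the floor (TFF3 in the SKBR3-labelled cells) carry no order.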

Other observations

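MUC1, the epithelial mucin of the luminal marker list, was the only called luminal marker of 14 in ZR75-1, where 1.52% of all tested probe sets were called. It was picked out after its values were seen. Its signals were 567.1 and 413.3 with HSD17B14 and 1348.3 and 1034.3 with the vector, lower without overlap. It fell by 1.29 ± 0.26 on the log2 scale (limma, n = 2 arrays per group, adjusted p = 0.0379). The call was lost in 13 of 19 alternatives, among them leaving out any 1 ZR75-1 array or either SKBR3-labelled HSD17B14 array (adjusted p from 0.0679 to 0.164). MUC1 in the other line read 26.7 and 24.4 against 9.5 and 15.1, with both vector arrays under the common floor of 17.6, so the size of that change and of the difference is not exact. The difference between the lines was -2.38 ± 0.37 (adjusted p = 0.0176), or -1.82 with values raised to the floor (adjusted p = 0.0811). That call was lost in 9 of 18 alternatives, among them leaving out ZR75-1 HSD17B14 array 2, ZR75-1 vector array 1 or either SKBR3-labelled HSD17B14 array (adjusted p from 0.0609 to 0.0981).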
